A study of Arabidopsis thaliana with 16 samples.

Results

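PLETHORA3 (PLT3) and PLETHORA7 (PLT7) were compared for binding to genomic DNA of the Arabidopsis thaliana inflorescence meristem (IM), the stem tip that forms flowers. The data came from DNA affinity purification sequencing (DAP-seq), in which a tagged transcription factor made outside the plant pulls down fragments of naked genomic DNA. IM_PLT3 replicates 1 and 2, made with a 3xFLAG-PLT3 bait, were set against IM_PLT7 replicates 1 and 2, made with a 3xFLAG-PLT7 bait. All of them used DNA of Col-0 plants, taken from about 500 IMs per replicate at an age of 4 to 8 weeks. Libraries of the shoot apical meristem (SAM) of seedlings 9 days old, with the same baits, were used as measurements that played no part in choosing the loci. PLT5 and GFP libraries were used for reference, and the whole series has 16 libraries. DAP-seq shows which DNA a protein can bind outside the cell, so it holds no information on the level of either protein in the meristem.

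PLT proteins belong to the AINTEGUMENTA-LIKE family, plant transcription factors with a pair of AP2 DNA-binding domains. They are known for maintaining meristems and for the placement of new organs, and in the shoot they act upstream of genes of auxin and cytokinin, the hormones that set organ positions. PLT3 and PLT7 are close relatives with overlapping roles. The comparison asks which genes and gene parts either protein favours on the same tissue's DNA.

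Peaks of the 4 IM libraries that shared at least 1 bp were joined into loci, which gave 40251 loci on the 5 nuclear chromosomes, out of 56046 loci over all libraries of the series. A locus with a peak in both replicates of PLT3 and in neither of PLT7 was called PLT3-only, and there were 1020 of these. The reverse pattern, PLT7-only, held 2423 loci. A further 20346 loci, 50.5% of all, had a peak in all 4 libraries and were called common. The remaining 16462 loci had another pattern, most often a peak in a single library, and entered no class. Of the loci found in both replicates of a bait, 4.44% of 22962 were PLT3-only and 8.89% of 27264 were PLT7-only. The other bait had a peak in a single replicate at 1596 loci of PLT3 and at 4495 loci of PLT7. With each library limited to the 28661 peaks of highest fold enrichment, there were 1761 PLT3-only and 2041 PLT7-only loci, so the gap between the classes was smaller. These counts describe the calls that chose the members and carry no test.

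The PLT3 libraries held 28661 and 29961 nuclear peaks and the PLT7 libraries 32116 and 31634, and the median fold enrichment of a peak over its local background was 2.57 and 2.59 with PLT3 against 3.75 and 3.54 with PLT7. Because this scale differs between the baits, each peak was given its percentile rank of fold enrichment within its own library (0 to 100), and differences are PLT3 minus PLT7 in percentile points. Ranks at the common loci correlated at r = 0.76 between the PLT3 replicates and at r = 0.93 between the PLT7 replicates. PLT3 replicate 1 correlated at 0.803 and 0.799 with the PLT7 libraries, and PLT3 replicate 2 at 0.732 and 0.734, so the PLT3 replicates were less alike than PLT3 replicate 1 and either PLT7 library. These are correlations across 20346 loci and loci are not replicates. Without PLT3 replicate 2 a class needs fewer calls, and there were 2640 PLT3-only and 4245 PLT7-only loci. The study describes the replicates as biological, each from its own pool of meristems, and the labels do not say which later steps were shared, so the tests measure the spread between these libraries.

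PLT proteins recognise a long and degenerate DNA site. A matrix of 16 bp was fitted on 7022 SAM windows of chromosomes 1 and 2, libraries that did not define the IM classes. Its fixed positions were a C at positions 4 and 11 and an A at position 13, and C was the most frequent base at position 2, with 67.9% of sites. A window of 50 bp each side of the summit was said to hold a site when its best score exceeded that of 95% of windows taken 500 bp away, where 5% pass by construction. The windows below show the 30 bases around the best match in the 12 bait-only loci with the highest mean rank that overlapped no IM GFP peak. The 16 bases compared with the matrix are in capitals. Sequences are from the RefSeq copy of TAIR10.1, written 5′ to 3′ on the strand of the match. They are shown because the PLT7-only windows all passed the threshold, while among the PLT3-only windows only EML3 and AT3G47070 passed it.
PLT3-only, nearest start AT5G31787, chr5:11709020-11709049, minus strand: gaacttaAACCGCAACCCGATCTtataagc
PLT3-only, nearest start AT4G05612, chr4:2949108-2949137, plus strand: ttagaagATACAAAGCCAAAGACtcatacg
PLT3-only, nearest start AT2G07880, chr2:3605770-3605799, plus strand: gactccaAAACACTAACCAAGCTtcttctt
PLT3-only, nearest start EML3, chr5:4131210-4131239, minus strand: ccaccagGTCCAAAGACCAAGAAgccaaag
PLT3-only, nearest start AT4G06664, chr4:3872698-3872727, plus strand: agtcatgGGACTTCCTCCCAAGTgagcttg
PLT3-only, nearest start AT3G47070, chr3:17339102-17339131, minus strand: caaggttTCCCACTTGCCGAGACatcgaga
PLT7-only, nearest start CKL2, chr1:27374036-27374065, minus strand: ctgatttGCACGCCTTCCAAGACccatcag
PLT7-only, nearest start AT4G04000, chr4:1919573-1919602, plus strand: ctcccagGCACGACTTCCGAGGAggacaaa
PLT7-only, nearest start SETH5, chr4:343257-343286, minus strand: ggtgtatGCACAACTTCCTAGGCcagaagg
PLT7-only, nearest start AT5G35640, chr5:13834753-13834782, plus strand: aacaggtGTCCGCTTCCCAATGAcgttgat
PLT7-only, nearest start EMB2788, chr4:13560685-13560714, minus strand: aaacgtgACACAAGAATCGAGACatttgac
PLT7-only, nearest start GAUT4, chr5:19346845-19346874, plus strand: gattgttTTGCTGATCCCGAGACgcttggc

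Sites of this kind were less frequent at PLT3-only than at PLT7-only loci. A site was found in 24.5% of the 1020 PLT3-only windows (95% Wilson interval 22 to 27.2) and in 44.7% of the 2423 PLT7-only windows (42.7 to 46.7). The common loci stood at 45.5% (44.8 to 46.2). Where a site was present it lay a median of 10.5 bp from the summit in PLT3-only loci and 4.5 bp in PLT7-only loci. Intervals here and below cover counting error only, and windows of one library are not replicates of a bait. By library, 39.7% and 38.1% of all IM peaks of PLT3 held a site, against 44.1% and 43.6% for PLT7, with no overlap between the baits. Without PLT3 replicate 2 the shares were 22.8% of PLT3-only and 43.2% of PLT7-only windows. An exact permutation test over 2 against 2 libraries gave p = 0.33, the smallest two-sided p that this design allows. The SAM libraries, whose windows on chromosomes 1 and 2 had trained the matrix, gave 41.6% and 41.2% for PLT3 against 45.4% and 45.1% for PLT7, also without overlap.

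PLT3-only peaks were also weaker than PLT7-only peaks. The median percentile rank of a PLT3-only locus was 13.6 and 18.6 in the PLT3 replicates, with median fold enrichments of 1.96 and 2.11. PLT7-only loci had median ranks of 36.7 and 37.3 in the PLT7 replicates, with fold enrichments of 3.21 and 3.11. At the common loci the medians were 63.4 and 63.9 in PLT3 and 64.5 and 63.9 in PLT7. Bait-only loci of either kind were therefore drawn from the weaker peaks, and 4.9% and 9.8% of PLT3-only loci lay in the upper part of the ranks (above 50), against 30% and 31.2% of PLT7-only loci. Within bands of a locus's own mean rank, sites were found at 21.2% of PLT3-only and 27.7% of PLT7-only loci with ranks up to 20. From 20 to 40 the shares were 26% and 39.9% for PLT3-only and PLT7-only loci, and above 40 they were 38% of 108 PLT3-only loci and 57.2% of 1078 PLT7-only loci. IM GFP peaks overlapped 5.59% of PLT3-only loci and 9.49% of PLT7-only loci, against 10.7% of common loci.

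The written forms of the family's consensus were rare, and only the shortest had intervals that separated the bait-only classes. They are no separate support for the matrix result, because the matrix fit was started from 587 sites that match CACNNNTNCC. CACNNNTNCC, searched on both strands, was found in 3.82% of PLT3-only windows (2.81 to 5.18) and 7.59% of PLT7-only windows (6.6 to 8.72), against 2.39% of windows 500 bp away. The longer form CACNNNTCCCNANG, each match of which contains the shorter form, was present in 2 PLT3-only windows (0.196%, 0.0538 to 0.712). It was present in 11 PLT7-only windows (0.454%, 0.254 to 0.811), so the intervals overlapped. In windows 500 bp away the longer form stood at 0.0174%. With a G in front, GCACNNNTCCCNANG was found in 0 of 1020 PLT3-only windows, which allows a share of up to 0.294% by the rule of 3 counts of the total, and in 0 of 2423 PLT7-only windows, which allows up to 0.124%. The G-box CACGTG, a light-response and stress element bound by other factor families, was at 1.37% and 1.24% in PLT3-only and PLT7-only windows, with overlapping intervals, and TATAAA at 12.3% and 11.5%. GC content had the same median of 38.6% in both classes.

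**Figure D1:**
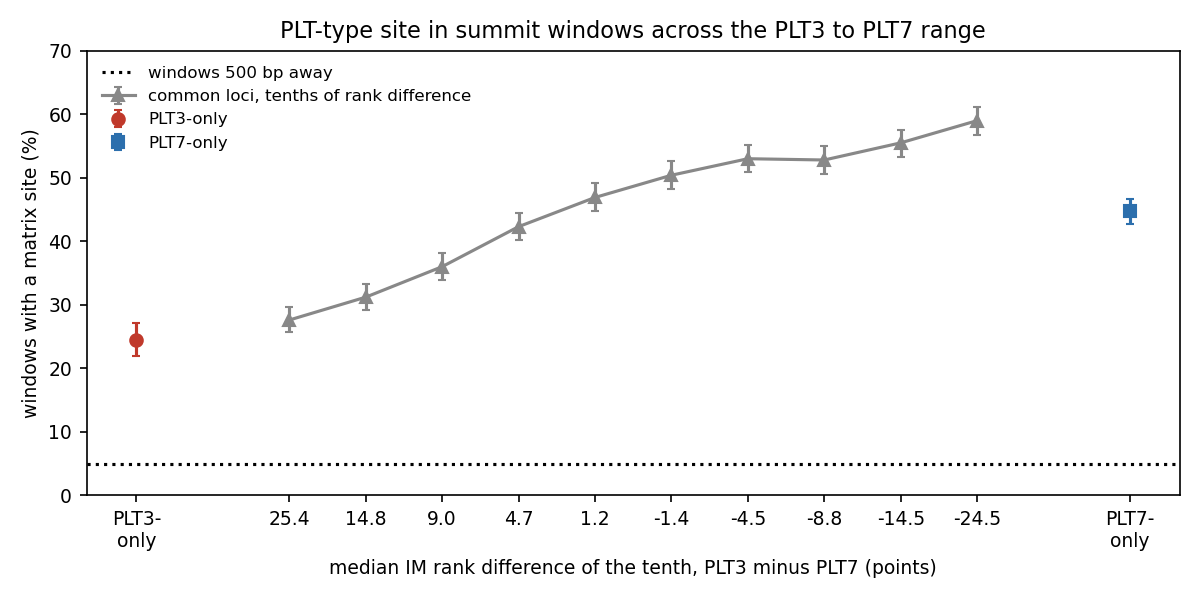
Share of summit windows (percent, vertical axis) that hold a matrix site, for PLT3-only loci (left), 10 groups of equal size of the common loci ordered by IM rank difference, PLT3 minus PLT7 (middle), and PLT7-only loci (right); bars are 95% Wilson intervals and the dotted line is the share in windows 500 bp away. The share runs between 27.6% in the group most favoured by PLT3 and 59% in the group most favoured by PLT7.

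At the common loci the question becomes one of degree, since both proteins had a peak in every library. With limma on the ranks of 20346 common loci, no locus passed an adjusted p of 0.05 in either direction (0% of loci tested, lowest adjusted p 0.224). At an unadjusted p under 0.05 there were 1742 loci higher in PLT3 and 1618 higher in PLT7, 16.5% of those tested. The median standard error of a difference was 6.61 points. With log2 fold enrichment centred on each library's median in place of the rank, limma called 2574 loci (12.7%) higher in PLT3 and 2375 loci (11.7%) higher in PLT7. On that scale the spread over loci was smaller in PLT3, with standard deviations of 0.373 and 0.331 against 0.59 and 0.532 in PLT7, and the loci called higher in PLT3 had a median mean rank of 30.5 while those called higher in PLT7 had one of 85.5. Calls on the log2 scale therefore went with the strength of the locus, and the part of this in each call was not tested.

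The ranks of the baits did not overlap at 5241 common loci with PLT3 on top (25.8%) and at 5164 with PLT7 on top (25.4%). A difference of at least 20 points was then required, a limit chosen after the data were seen. This left 1723 PLT3-favoured loci (8.47%) and 1633 PLT7-favoured loci (8.03%). The locus just inside the limit differed by 20.0004 points and the locus just outside by 19.9988 points. PLT3-favoured loci had median ranks of 57.7 and 64.6 in the PLT3 libraries against 30.4 and 31.2 in the PLT7 libraries. PLT7-favoured loci had 47.1 and 40.7 in PLT3 against 73.2 and 72.7 in PLT7. PLT3-favoured loci were the weaker ones on average: when the common loci were put into 5 bands of equal size by mean rank, 539 PLT3-favoured loci lay in the lowest band and 8 in the highest, against 204 and 37 PLT7-favoured loci.

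The site separated these loci as it did the bait-only classes. It was present in 27.6% of PLT3-favoured windows (25.6 to 29.8) and 60.3% of PLT7-favoured windows (57.9 to 62.6). Within the bands of mean rank the shares of PLT3-favoured and PLT7-favoured windows were 22.6% and 46.6% in the lowest band, 30% and 53.1% in the next, 28.7% and 60.9% in the middle band, and 32.7% and 73.5% in the band above it. The highest band had 2 of 8 PLT3-favoured and 32 of 37 PLT7-favoured windows with a site. Across all common loci the matrix score had a Spearman correlation of -0.226 with the IM rank difference and 0.266 with the mean rank, over 20346 loci that share 4 libraries. The sites themselves also differed in their bases. C stood at position 2 in 64.1% of sites in PLT3-favoured and 74.5% in PLT7-favoured loci, and G at position 14 in 27.7% of PLT3-favoured and 51.9% of PLT7-favoured sites.

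Short sequences without any model were examined as well. Over 2080 words of 6 bases, limma on the log2 share of peaks per library called 0 words in the IM (lowest adjusted p 0.0717, 362 words at an unadjusted p under 0.05) and 0 in the SAM (190 unadjusted). Other scales and a variance trend, all tried after the data were seen, gave between 0 and 104 words in the IM and between 0 and 10 in the SAM, so the number of calls rests on that choice. The word ACGATG, on the PLT3 side and among those with the lowest p, was in 5.48% and 5.39% of PLT3 peaks against 4.79% and 4.86% of PLT7 peaks, and in 6.37% of PLT3-only against 3.47% of PLT7-only loci. In the SAM it was in 5.19% and 5.25% of PLT3 peaks and 4.85% and 4.99% of PLT7 peaks. Its share in windows 500 bp away was 2.96%. The same IM libraries chose the word, so its class shares are no separate support. Other words had the same adjusted p. Among those examined in the IM classes, CAGGGG alone ran against its side. It was on the PLT7 side, with 1.08% of PLT3-only and 1.03% of PLT7-only loci. The rest kept the order of their side, some by little, such as CGGACC with 1.18% of PLT3-only and 1.2% of PLT7-only loci.

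**Figure D2:**
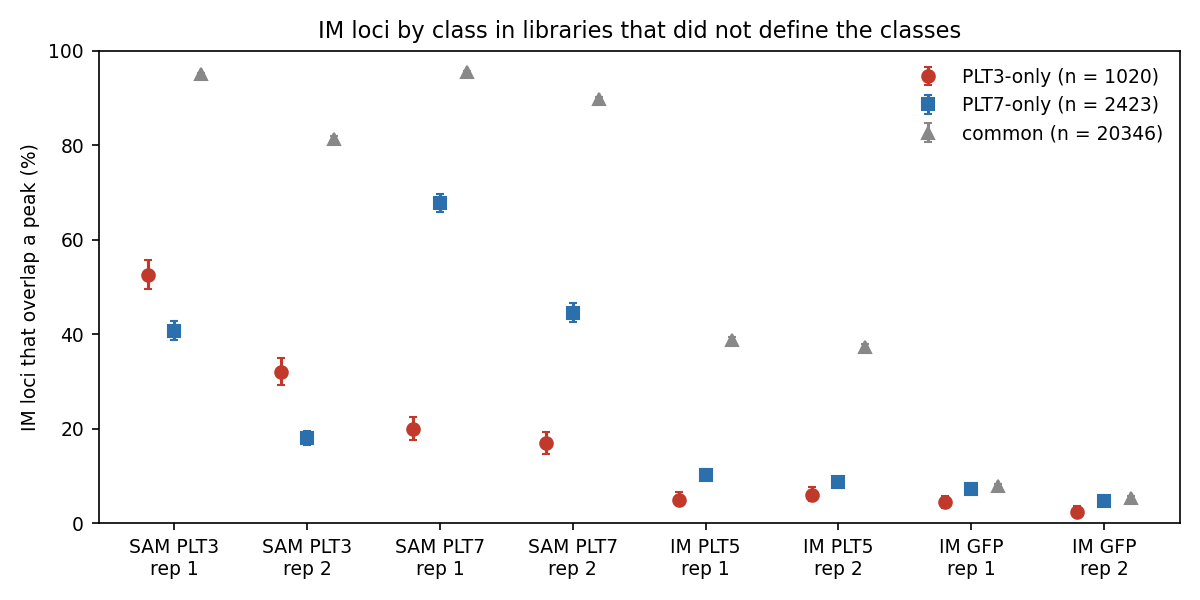
Share of IM loci (percent, vertical axis) that overlap a peak of libraries that did not define the classes (horizontal axis, each with its replicate number), for PLT3-only, PLT7-only and common loci; bars are 95% Wilson intervals. PLT3-only loci reach 52.6% and 32% in SAM PLT3 against 19.9% and 16.9% in SAM PLT7, and PLT7-only loci 67.8% and 44.5% in SAM PLT7.

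The SAM libraries repeated the preference of the IM classes in part. PLT3-only loci of the IM overlapped a SAM PLT3 peak in 52.6% (49.6 to 55.7) and 32% (29.2 to 34.9) of cases by replicate, and a SAM PLT7 peak in 19.9% (17.6 to 22.5) and 16.9% (14.7 to 19.3). PLT7-only loci overlapped SAM PLT3 peaks in 40.7% and 18% of cases and SAM PLT7 peaks in 67.8% and 44.5%. Common loci overlapped SAM PLT3 peaks in 95% and 81.4% and SAM PLT7 peaks in 95.4% and 89.8% of cases. In SAM replicate 1 of PLT3 the bait-only classes were close, 52.6% of PLT3-only against 40.7% of PLT7-only loci. This library had the most peaks of the SAM libraries compared (30941). When the classes were built again from the SAM libraries, 127 PLT3-only loci (12.5%) fell on a PLT3-only locus of the SAM and 8 (0.784%) on a PLT7-only one. Of PLT7-only loci, 25 (1.03%) fell on a SAM PLT3-only and 335 (13.8%) on a SAM PLT7-only locus. Common loci of the IM fell on a SAM PLT3-only locus in 1.01% and on a SAM PLT7-only locus in 1.68% of cases. Common loci of the SAM took 34 PLT3-only (3.33%) and 194 PLT7-only loci (8.01%) of the IM. Most bait-only loci were thus in no SAM class of either kind. PLT5 peaks of the IM overlapped 5% and 5.98% of PLT3-only loci, 10.3% and 8.63% of PLT7-only loci and 38.8% and 37.2% of common loci.

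The same held for the rank differences at common loci. Of the common loci, 15119 had a peak in all 4 SAM libraries of PLT3 and PLT7. At the 1160 of these that were PLT3-favoured, the SAM difference had a median of 14.6 points (quartiles 4.56 and 24.6) and PLT3 ranked higher in 84.1%. At the 1041 that were PLT7-favoured the median was -9.39 points (quartiles -19 and -1.27) and PLT3 ranked higher in 22.2%. Over all 15119 the median was 0.464 points and PLT3 ranked higher in 52.1%. Each of the 4 pairings of a SAM PLT3 with a SAM PLT7 library gave the same direction, with medians between 11.6 and 18.8 points at PLT3-favoured loci and between -15.6 and -3.27 points at PLT7-favoured loci. The IM and SAM differences correlated at r = 0.456 (Spearman 0.449) over 15119 loci, which are not independent. limma called 0 loci in the SAM (1101 higher in PLT3 and 597 higher in PLT7 at an unadjusted p under 0.05), and no locus passed the tissue by bait interaction on the rank (lowest adjusted p 0.684, with 386 positive and 505 negative at an unadjusted p under 0.05), which does not show that the tissues act alike.

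**Figure D3:**
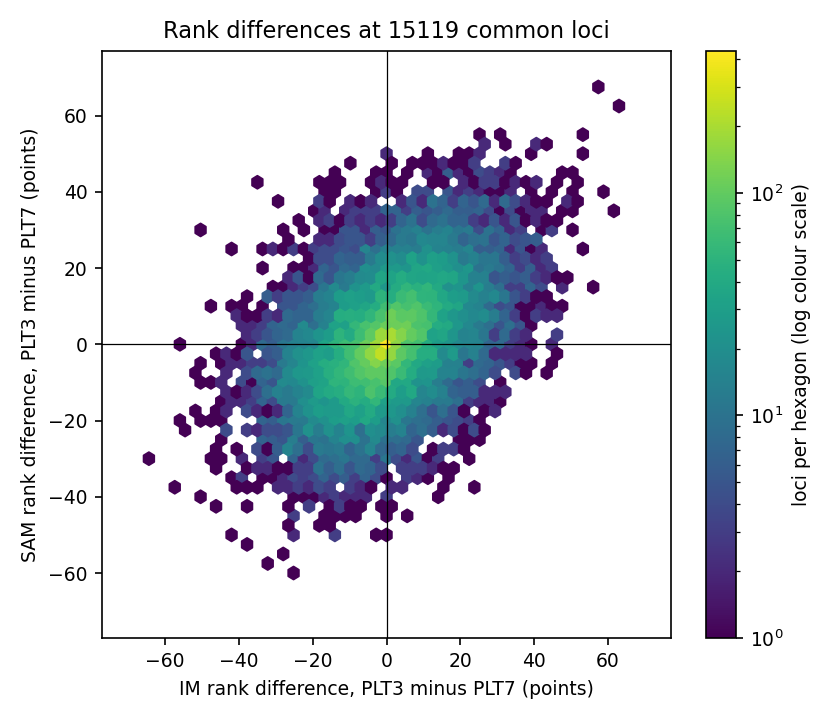
Rank difference PLT3 minus PLT7 in percentile points in the IM (horizontal axis) and in the SAM (vertical axis) at 15119 common loci; colour gives the number of loci per hexagon on a log scale. The cloud leans along the diagonal, with r = 0.456.

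The 5′ untranslated region (5′ UTR), the exon sequence before the coding start, separated the baits in the same direction in bait-only and favoured IM loci. Each summit was given 1 gene part from the RefSeq annotation. A summit lay in a 5′ UTR exon at 3.53% of PLT3-only loci (2.56 to 4.85) and 6.31% of PLT7-only loci (5.41 to 7.35), against 4.91% of genome bases. At common loci it did so in 3.71% of PLT3-favoured (2.92 to 4.72) and 8.33% of PLT7-favoured loci (7.08 to 9.77). Summits in 5′ UTR exons made up 5.59% and 5.55% of all PLT3 peaks against 5.96% and 5.92% of PLT7 peaks, without overlap (exact permutation p = 0.33, the smallest possible). In the SAM the library shares were 5.88% and 5.77% for PLT3 against 5.89% and 6.1% for PLT7. Within the bands of mean rank, 3.34% of PLT3-favoured and 6.37% of PLT7-favoured summits lay there in the lowest band, 4.56% and 7.68% in the next, 2.33% and 8.44% in the middle band, and 5.23% and 10.4% in the band above it. In classes built in the same way from the SAM libraries, 5′ UTR summits made up 4.89% of PLT3-favoured (3.91 to 6.09) and 7.54% of PLT7-favoured loci (6.06 to 9.35), with intervals that just overlap. The SAM bait-only classes had 4.19% for PLT3-only (3.14 to 5.56) and 5.1% for PLT7-only loci (4.09 to 6.34), so the bait-only difference of the IM was not clear in the SAM.

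**Figure D4:**
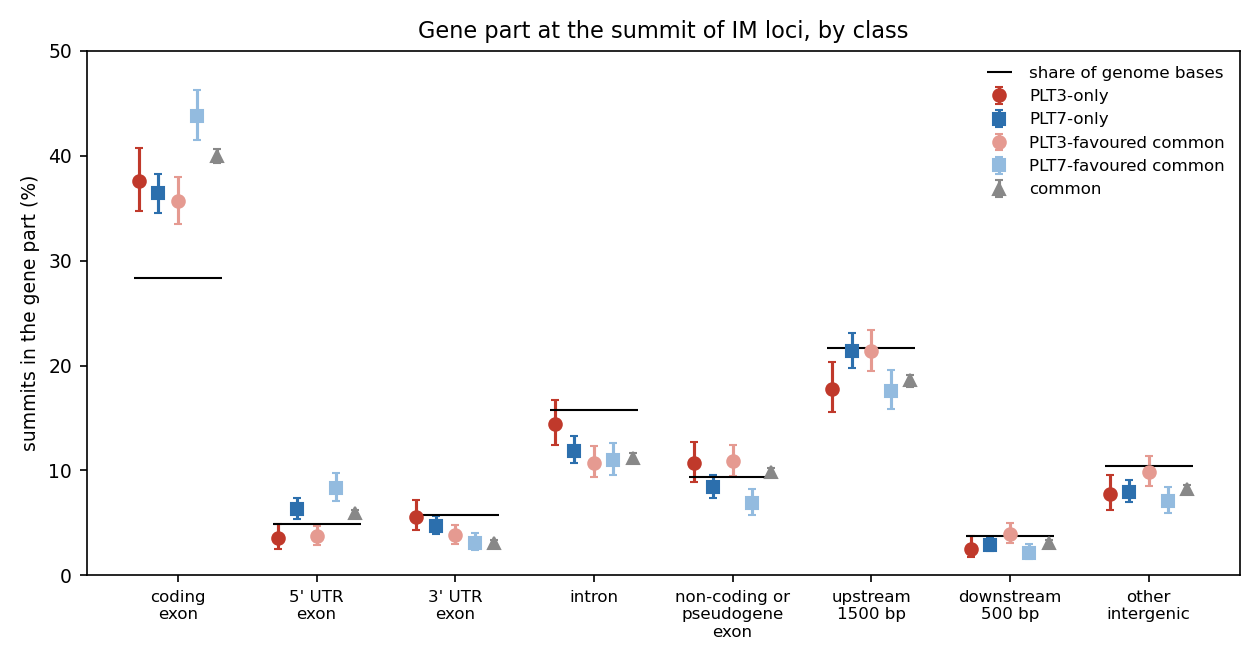
Share of summits (percent, vertical axis) in each gene part (horizontal axis) for PLT3-only, PLT7-only, PLT3-favoured common, PLT7-favoured common and all common IM loci; bars are 95% Wilson intervals and black dashes the share of genome bases. In 5′ UTR exons PLT3-only loci stand at 3.53% and PLT7-only loci at 6.31%.

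Other gene parts gave differences that were mixed between the kinds of class. Coding exons held 37.6% of PLT3-only and 36.4% of PLT7-only summits, with overlapping intervals, against 28.3% of genome bases. At common loci the coding share was 35.7% in PLT3-favoured (33.5 to 38) and 43.8% in PLT7-favoured loci (41.5 to 46.3). This gap was wider in points than that of the 5′ UTR. Favoured classes of the SAM repeated it, with coding shares of 31.4% in PLT3-favoured (29.1 to 33.8) and 44.8% in PLT7-favoured loci (41.8 to 47.9). Upstream regions of up to 1500 bp held 17.8% of PLT3-only and 21.4% of PLT7-only summits, while the favoured loci ran the other way, with 21.4% of PLT3-favoured and 17.6% of PLT7-favoured summits. Favoured loci of the SAM had this latter order too, at 23.1% for PLT3-favoured and 15% for PLT7-favoured summits. With libraries of equal size the bait-only upstream shares changed order, at 21.2% of PLT3-only and 19.6% of PLT7-only summits, while the 5′ UTR shares stood at 3.98% of PLT3-only and 6.61% of PLT7-only summits. The SAM bait-only classes had the same order as these, with 22.2% of PLT3-only and 19.4% of PLT7-only summits upstream. Introns held 14.4% of PLT3-only and 11.9% of PLT7-only summits, 10.7% of PLT3-favoured and 11% of PLT7-favoured summits, and 10.2% of PLT3-only and 12.2% of PLT7-only summits of the SAM. Exons of non-coding genes or pseudogenes held 10.7% and 8.42% of PLT3-only and PLT7-only summits, and 10.9% and 6.86% of PLT3-favoured and PLT7-favoured summits. The SAM bait-only classes ran the opposite way, with 7.16% of PLT3-only (5.77 to 8.86) and 11.3% of PLT7-only summits (9.77 to 13). In gene-poor stretches, bins of 200000 bp with under 10% coding sequence, lay 13.4% of PLT3-only (11.5 to 15.7) and 10.7% of PLT7-only loci (9.56 to 12), and 16% of PLT3-favoured (14.4 to 17.8) and 9.86% of PLT7-favoured loci (8.51 to 11.4). Such bins made up 13.4% of the genome and held 13.3% of common loci, so the PLT3-only share was that of the genome. The nearest gene start was a median of 950 bp away at PLT3-only and 905 bp at PLT7-only loci.

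The 6 strongest bait-only loci of each bait are described without a test. Nearest to the top PLT3-only locus was AT5G31787, a pseudogene whose start lay 4078 bp from the summit (chr5:11708650-11709137). Its ranks were 85.7 and 92.3 in the PLT3 libraries, with fold enrichments of 3.59 and 3.79, and there was no peak in PLT7. In the SAM it was found in PLT3 replicate 2 alone, at rank 93.9. AT2G07880 and AT4G06664, also the nearest starts of PLT3-only loci, are pseudogenes too. The locus near AT4G05612 (chr4:2948999-2949570) had IM ranks of 82.3 and 88.7 in PLT3, yet in the SAM it had peaks in all libraries, at 75.4 and 70.8 in PLT3 against 24.3 and 49.1 in PLT7. Inside coding exons lay the PLT3-only summits of EML3, an EMSY-like protein gene, at ranks 60.9 and 78.3, and of the locus near AT3G47070, whose summit lay in the neighbouring gene AT3G47080, at ranks 59.2 and 74.8.

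Among PLT7-only loci the first was in a coding exon of CKL2, a casein kinase 1-like gene (chr1:27373845-27374259), with ranks of 97.6 and 94 in the PLT7 libraries and fold enrichments of 9.34 and 6.98. It had no SAM PLT3 peak, and its SAM PLT7 ranks were 90.2 and 95.4. The locus upstream of the pseudogene AT4G04000 had PLT7 ranks of 97.5 and 93.1 in the IM and again no SAM PLT3 peak, with 90.9 and 85.8 in SAM PLT7. SETH5, AT5G35640 and EMB2788 had summits inside the gene, in coding exons or, for EMB2788, an intron, with PLT7 ranks between 91.9 and 97.6. At these 3 genes SAM PLT3 replicate 1 did have a peak, at ranks of 74.4 for SETH5, 60.5 for AT5G35640 and 54.4 for EMB2788. The locus near the start of GAUT4, a pectin galacturonosyltransferase gene, had its summit in FPS1, a farnesyl diphosphate synthase gene, and ranked 90.7 and 91.3 in PLT7. All 4 SAM libraries had a peak there, at 66 and 76.3 in PLT3 against 82.3 and 67.5 in PLT7.

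The common loci with the widest non-overlapping differences are given next. Towards PLT3 the largest was near AT3G00650 (chr3:14186181-14186673), with ranks of 66.2 and 77.8 in PLT3 against 7.6 and 8.34 in PLT7, a difference of 64.1 points (SE 5.86, limma adjusted p = 0.224). Its SAM ranks were 73.9 and 95.9 in PLT3 against 19.6 and 25.7 in PLT7. In the 5′ UTR of ROC2, a cyclophilin gene, PLT3 ranked 58.3 and 84.3 against 13 and 20 in PLT7. The SAM ranks of ROC2 overlapped, at 37.9 and 13.7 in PLT3 against 16.4 in PLT7 replicate 1, with no peak in PLT7 replicate 2. The difference at AT2G36170, 56 points, had an SE of 26.7 because PLT3 replicate 2 ranked 98.9 and replicate 1 only 25.8. The other PLT3 examples were near the pseudogenes AT5G32404, AT4G06710 and AT5G37145, with differences of 58.5, 54.4 and 54 points, and none of the 6 windows held a site.

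Towards PLT7 the largest difference was near the pseudogene AT3G42476 (chr3:14619614-14620418), at ranks of 59.6 and 8.39 in PLT3 against 98.3 and 96.6 in PLT7, or -63.5 points (SE 18.9, limma adjusted p = 0.266). The PLT3 replicates were far apart there. At AGL89, a MADS-box gene, the summit lay in a coding exon with ranks of 40.3 and 13.1 in PLT3 against 77.1 and 87.7 in PLT7, and the SAM gave 41.5 in PLT3 replicate 1, no peak in PLT3 replicate 2, and 77.9 and 70.2 in PLT7. AT1G61260 had its summit in the 5′ UTR, at 42.1 and 27.7 in PLT3 against 90.3 and 89.1 in PLT7. The loci near AT3G31314, AT3G43930 and AT4G13996 differed by -57.2, -56.5 and -55.4 points. Near AT3G31314 the SAM ranks overlapped, at 67.8 and 65.9 in PLT3 against 61.7 and 70.9 in PLT7. Sites were found in 3 of these 6 windows, at AT3G43930, AGL89 and AT1G61260.

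Genes were then read in a window that began 1500 bp before the gene start and ended 500 bp after it. A locus counted when any part of it overlapped the window, so its summit could lie outside or in another gene. Of 37899 nuclear genes, 435 (1.15%) had a PLT3-only locus and no PLT7 peak in the window, and 1078 (2.84%) had a PLT7-only locus and no PLT3 peak. Leaving out a library in turn gave 820 to 1567 genes for PLT3 and 1750 to 2512 for PLT7, the highest of each without PLT3 replicate 1. A common locus was present at 15344 genes (40.5%). Over 245 genes of 11 lists on meristem maintenance, organ boundaries, flowering, growth, auxin and cytokinin, 4 (1.63%) fell to PLT3, 13 (5.31%) to PLT7 and 98 (40%) had a common locus. The lists on flowering and floral identity, auxin transport, organ boundary and polarity, the PLT/AIL family, and NPY and NPH3 relatives had no bait-only gene of either kind.

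The 4 PLT3 genes were mostly of cytokinin and their peaks were weak. LOG8 encodes an enzyme that releases active cytokinin, and its locus 482 bp upstream of the start (chr5:3853660-3854023) ranked 23.3 and 34.3 in PLT3. In the SAM this locus ranked 41.5 and 44.2 in PLT3, and no SAM PLT7 peak overlapped it. AHP4, a phosphotransfer protein of the cytokinin relay, had a locus 598 bp upstream with ranks of 10.7 and 31 in PLT3, and in the SAM of 14.1 and 35.5 in PLT3 with none in PLT7. Both genes thus had the PLT3-only pattern in either tissue. The study, which kept peaks reproducible between replicates and removed those overlapping GFP, reported no evidence of direct PLT regulation of AHP4. ARF8, an auxin response factor gene, ranked 21.5 and 23.3 in PLT3 at 182 bp upstream, and in the SAM its locus was found only in PLT7 replicate 1, at rank 12. ARR4, a type-A response regulator gene that acts as a brake on cytokinin signalling, ranked 3.69 and 9.08, close to the calling limit, and its locus overlapped an IM GFP peak.

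The PLT7 genes came from several lists. The highest ranks were at GRF7, a growth-regulating factor gene, whose locus 1112 bp upstream (chr5:21792913-21793249) ranked 56.8 and 62.9 in PLT7. It had no SAM PLT3 peak, and its SAM PLT7 ranks were 55.6 and 68.8. PUP10 and PUP2, of the purine permease family that carries cytokinin bases, ranked 57.5 and 57.6 (PUP10) and 50.4 and 60.6 (PUP2) in PLT7. The cytokinin oxidase genes CKX1 and CKX7, whose enzymes break cytokinin down, ranked 32.7 and 54 (CKX1) and 31.5 and 43.2 (CKX7). The PUP10 summit lay in a 3′ UTR exon 202 bp upstream of its start, and the CKX1 summit in an intron 937 bp upstream. Both thus lay in another annotated gene. In the SAM the PUP10 locus had a peak in PLT3 replicate 1 at rank 72.2, against 51.5 and 39.1 in PLT7, while PUP2 had no SAM PLT3 peak and ranked 45.2 and 38.2 in PLT7. CKX1 had the PLT7-only pattern in the SAM, at 31.1 and 52.8, while CKX7 had no SAM peak in any of the 4 libraries.

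Among the auxin genes with a PLT7-only locus were IAA13, IAA19 and IAA8, which encode Aux/IAA repressors, ARF10, and YUC2, an auxin biosynthesis gene. Their PLT7 ranks were 45.5 and 26.3 for IAA13, 30.4 and 26.3 for IAA19, 17.2 and 26.3 for IAA8, 37.3 and 20 for ARF10, and 30.8 and 41.2 for YUC2. SAM PLT3 peaks were found at IAA13, IAA19, ARF10 and YUC2, so the absence of PLT3 there held for the IM libraries only. Over all 13 PLT7-only loci of list genes, 6 had a SAM PLT3 peak and 3 had the PLT7-only pattern in the SAM as well. CLV2, a receptor-like protein gene of stem cell control, had a locus 41 bp upstream at ranks of 32.7 and 44.6, and WOX9, a homeobox gene, had one 538 bp upstream at 17.2 and 26.3. Both overlapped IM GFP peaks. A single further gene on the PLT7 side had lower ranks and is not described. A site was present at 5 of the 13 PLT7-only loci of list genes and at 0 of the 4 PLT3-only loci.

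By the 20-point limit, 9 list genes (3.67%, against 3.71% of all genes) had a PLT3-favoured and no PLT7-favoured common locus, and 13 (5.31%, against 3.61%) the reverse. No adjusted p on the rank scale passed at any of them. Below, the log2 difference is that of centred fold enrichment with its limma adjusted p. These p-values come from the same 4 libraries that chose the loci, on the scale where calls went with the strength of the locus. They are no separate support for a preference. This group of genes was singled out after the values were seen.

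**Figure D5:**
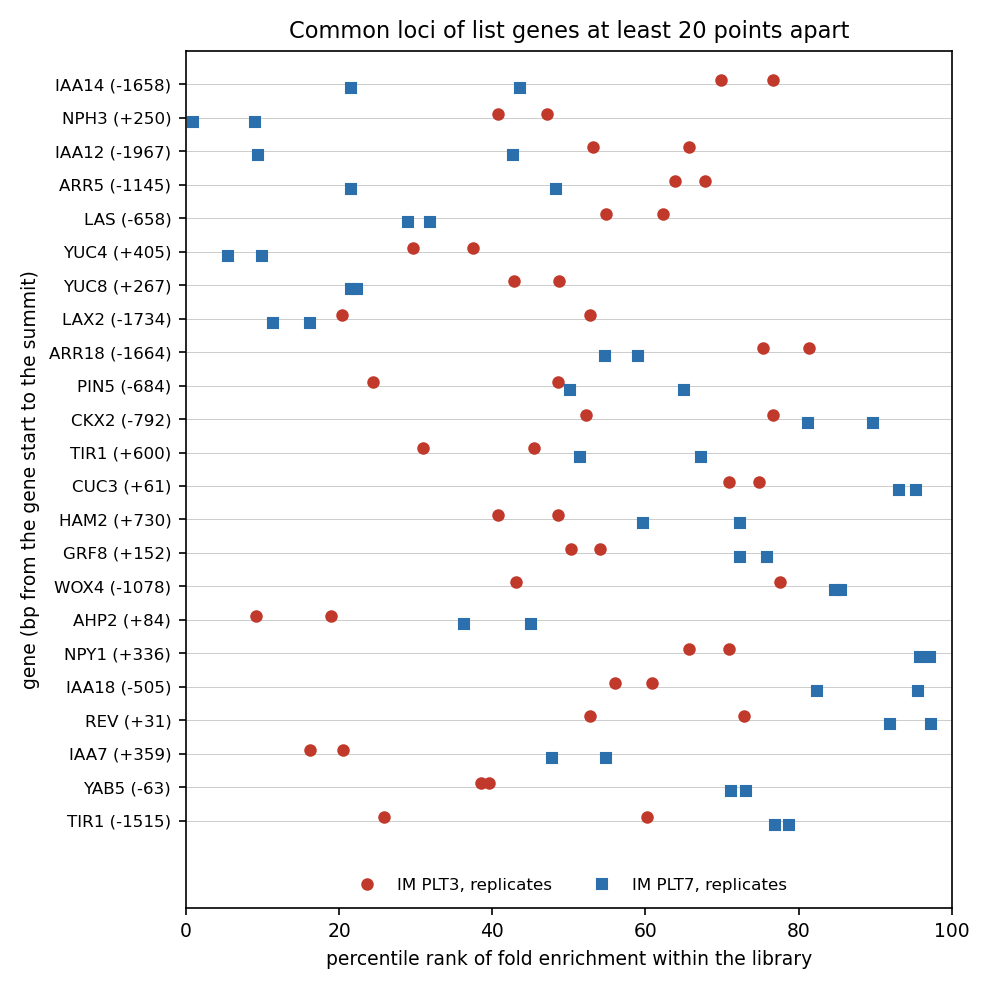
Percentile rank of fold enrichment (horizontal axis, 0 to 100) in IM PLT3 replicates (circles) and IM PLT7 replicates (squares) at the 23 common loci of list genes whose ranks did not overlap and differed by at least 20 points, each labelled with the distance from gene start to summit in bp. PLT3 lies to the right in the upper 9 and to the left in the lower 14.

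Of 22 organ boundary and polarity genes, 3 had a PLT7-favoured and 1 had a PLT3-favoured common locus. REVOLUTA (REV), a class III homeodomain-leucine zipper gene of the upper organ side, had a locus with its summit in the 5′ UTR (chr5:24396800-24397442). REV ranked 52.8 and 72.9 in PLT3 against 97.3 and 91.9 in PLT7, a difference of -31.8 points (SE 8.56), and -0.86 on the log2 scale (limma adjusted p = 4.39e-04). CUC3, a NAC gene that marks organ boundaries, ranked 70.9 and 74.8 in PLT3 against 95.3 and 93.1 in PLT7, a log2 difference of -0.70 (limma adjusted p = 0.00126), with a summit in the 5′ UTR too. YAB5, a YABBY gene of the lower organ side, ranked 39.6 and 38.6 in PLT3 against 73.2 and 71.2 in PLT7. In the SAM these preferences were smaller or absent: REV ranked 83.2 and 84.4 in PLT3 against 85.7 and 87.1 in PLT7, CUC3 91.6 and 76.3 against 91.2 and 89.4, and YAB5 82 and 69.8 against 72.3 and 72.2. The REV and YAB5 loci overlapped IM GFP peaks. In the same list LAS, a GRAS gene needed for axillary meristems, went to PLT3, with 54.9 and 62.3 in PLT3 against 31.9 and 29 in PLT7, at a locus that overlapped an IM GFP peak.

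The relatives NPY1 and NPH3 went opposite ways, both with summits in the 5′ UTR. NPY1, which acts with auxin transport in organ formation, ranked 65.7 and 70.9 in PLT3 against 97.1 and 95.8 in PLT7 (log2 difference -0.88, SE 0.14, limma adjusted p = 2.61e-04). NPH3, a phototropin signalling gene, ranked 47.1 and 40.7 in PLT3 against 9.05 and 0.915 in PLT7 (log2 difference 0.91, SE 0.14, limma adjusted p = 2.05e-04). In the SAM, NPY1 ranked 88.2 and 94.5 in PLT3 against 92.7 and 87.1 in PLT7, which overlap. NPH3 had a SAM rank of 43.3 in PLT3 replicate 1, none in replicate 2, and 6.19 and 1.57 in PLT7.

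Auxin genes stood on either side. Of 14 auxin biosynthesis genes, 2 had a PLT3-favoured common locus and 1, YUC2, was PLT7-only as given above. YUC4 and YUC8 were the PLT3-favoured ones, with YUC4 at 29.7 and 37.5 in PLT3 against 9.98 and 5.44 in PLT7, and YUC8 at 42.9 and 48.7 against 21.5 and 22.3. Both summits lay in coding exons, and neither gene had a PLT7 peak of the SAM at the locus. YUC8 had no SAM PLT3 peak there either. The Aux/IAA genes were divided. IAA14 ranked 69.9 and 76.6 in PLT3 against 43.6 and 21.6 in PLT7 (40.6 points, SE 9.27), and its SAM ranks were 66 and 70.8 in PLT3 against 33.7 and 30.8 in PLT7. IAA12 went the same way by 33.4 points, with an IM GFP peak at the locus. The IAA12 summit lay in a coding exon 1967 bp upstream of the start, thus in another gene. That of IAA14 lay 1658 bp upstream, outside the gene window. IAA18 ranked 60.9 and 56 in PLT3 against 95.6 and 82.4 in PLT7, with SAM ranks of 73.3 and 68.8 in PLT3 against 97.9 and 91.4 in PLT7, and its locus overlapped an IM GFP peak. IAA7 ranked 16.2 and 20.5 in PLT3 against 47.8 and 54.8 in PLT7.

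TIR1, an auxin receptor gene, had 2 PLT7-favoured loci, in a coding exon 600 bp past the start and 1515 bp upstream. The upstream locus ranked 60.2 and 25.9 in PLT3 against 76.9 and 78.8 in PLT7, or -34.8 points with an SE of 13.1. The transporter genes LAX2, with an IM GFP peak at the locus, and PIN5 differed by 22.8 and -21.1 points. The LAX2 summit lay 1734 bp upstream of the start, outside the gene window. Among cytokinin genes the response regulators ARR5 (30.9 points) and ARR18 (21.5 points) went to PLT3, while CKX2 (-21.1 points) and AHP2 (-26.7 points) went to PLT7. The ARR18 summit lay in a coding exon 1664 bp upstream of its start, thus in another gene. That of CKX2 lay in an exon of a non-coding gene or pseudogene 792 bp upstream. AHP2 did not pass on the log2 scale (-0.13, limma adjusted p = 0.523), and in the SAM it ranked 77 in PLT3 replicate 1 and 25 in PLT7 replicate 1, with no peak in the other replicates. WOX4, a homeobox gene of the vascular stem cells, ranked 43.1 and 77.6 in PLT3 against 85.6 and 84.7 in PLT7, and its SAM ranks overlapped, at 94 and 83.7 in PLT3 against 87.9 and 88.6 in PLT7. HAM2 and GRF8 differed by -21.3 and -22 points. On the log2 scale, 8 of the 9 PLT3-favoured and 8 of the 14 PLT7-favoured loci passed an adjusted p of 0.05 with limma. Of all favoured common loci, 1411 of 1723 PLT3-favoured and 744 of 1633 PLT7-favoured loci did so, so passing was not particular to list genes.

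The SAM repeated the order at part of these loci. Of the 9 PLT3-favoured loci, 6 had a peak in all 4 SAM libraries, and PLT3 ranked above PLT7 without overlap at 3 of them while the ranks overlapped at 3, including those of ARR18 and IAA12. Of the 14 PLT7-favoured loci, 13 had all 4 SAM peaks, and PLT7 ranked above PLT3 without overlap at 6 while the ranks overlapped at 7, including those of HAM2 and GRF8. At 0 of the loci with all 4 SAM peaks was the order reversed without overlap. Among all favoured loci with 4 SAM peaks, PLT3 ranked above without overlap at 52.6% of PLT3-favoured loci, and PLT7 at 40.9% of PLT7-favoured loci. The reverse order without overlap was found at 3.02% of PLT3-favoured and 5.09% of PLT7-favoured loci. Over all common loci with 4 SAM peaks, PLT3 ranked above without overlap at 24.4% and PLT7 at 19.3%. The counts of list genes were near the shares of all favoured loci and show nothing particular to those genes.

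Sites were present at 10 of the 14 PLT7-favoured loci of list genes and at 2 of the 9 PLT3-favoured loci, ARR18 and NPH3. The PLT7 windows printed for comparison are a selection, and all of them passed the threshold. Those of AHP2, GRF8, HAM2 and PIN5 did not pass and are not printed. Of the printed PLT3 windows, that of NPH3 passed and those of IAA14 and LAS did not. The ARR18 window, which passed with a higher score than NPH3, is not printed. Capitals mark the 16 bases compared with the matrix.
REV, chr5:24397000-24397029, minus strand: aggatttGCACGCAAACCGACAAgctgtgc
CUC3, chr1:28673972-28674001, plus strand: caaaatgGCACATAAATCGAAGAtataata
NPY1, chr4:15394279-15394308, plus strand: ctgtttgGCTCAAATCTCAATGAaagttta
WOX4, chr1:17239248-17239277, minus strand: tgaggttCTGCAGTTCCCGATGTacaagag
IAA18, chr1:19304556-19304585, minus strand: gggacttACACATATTCCAATGTttgggaa
NPH3, chr5:25727355-25727384, plus strand: gagaaagCTCCAATTCTCGAAGCatcccat
IAA14, chr4:8351910-8351939, plus strand: tttgccgTTTCTACTTTCTAGGAgcataga
LAS, chr1:20763158-20763187, plus strand: tttctttTTGTACATCCCGAGATtttgatc

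Over whole lists the shifts were small beside the spread of single loci. The common loci of organ boundary and polarity genes had a median IM difference of -8.72 points over 12 loci, of which 2 were higher in PLT3, while their SAM median over 11 loci was 3.64 points. Cell cycle and growth genes had -5.35 points over 9 loci, and flowering genes -4.39 points over 10 loci, with 2 loci higher in PLT3 in each list. In the other direction auxin biosynthesis genes had 7.87 points over 8 loci, of which 4 were higher in PLT3, and auxin response genes 4.18 points over 17 loci, of which 9 were. The SAM medians of these lists were 8.28 and 0.0212 points. All common loci had a median of -0.0956 points (quartiles -8.82 and 8.96). No list was tested as a set, and none is called different from the background.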

How the data were processed

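DAP-seq peak lists of IM_PLT3 and IM_PLT7 were compared, with SAM libraries as separate measurements. Reads were trimmed with fastp 0.23.2, mapped with BWA 0.7.17, filtered with SAMtools 1.15 and peaks called with MACS3 per the submitters' processing notes. The authors called peaks in each library on its own at a q-value of 0.1 without a control library, joining signal up to 100 bp apart. Column 7, as deposited by the authors, is a ratio, the fold enrichment over local background. The significance columns, deposited by the authors on a −log10 scale, hold a q-value and a p-value for each peak. Neither the authors' replicate comparison nor their removal of GFP peaks is in these lists, and read depth is unknown from them, so peak numbers stand in for it. Without a control library, fold enrichment depends on local coverage.

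Sequence names in the files matched the RefSeq copy of TAIR10.1, which gave the annotation. Organelle peaks were counted apart. The class, gene part and gene rules stand in the report. Ranks were tested with limma 3.58.1 in R 4.3.3 across all common loci with Benjamini-Hochberg adjustment, checked on simulated data first. Shares of libraries were tested with exact two-sided permutation tests in scipy 1.17.1. Other steps used Python 3.11.15, numpy 2.4.6, pandas 2.3.3 and matplotlib 3.10.9. Shares carry 95% Wilson intervals. Named loci are the 6 bait-only loci per bait of highest mean rank, and the 6 common loci per direction with the widest non-overlapping difference, none overlapping an IM GFP peak, because no locus passed the rank test. Of the list genes with a bait-only locus, up to 12 per direction were named by mean rank. The members, lists and tests were chosen with earlier results of these data known. The matrix, the word fits and the 20-point limit were added after the data were seen. Gene symbols matched the annotation for 245 of the list genes. Alternatives are named in the closing section.

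The replicate numbers of the labels were not used as pairs, since nothing states that a number marks a shared DNA preparation.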

Additional observations from a re-analysis of the deposited data

Results flagged for a closer look

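Mitochondrial peaks, which the comparisons left out, were more numerous with both PLT baits than with GFP: 52 and 64 in IM PLT3 replicates 1 and 2 and 58 and 57 in IM PLT7 replicates 1 and 2, against 12 and 14 in the IM GFP replicates. As a share of all peaks of the library these were 0.181% and 0.213% in PLT3 and 0.18% and 0.18% in PLT7. The GFP shares were 0.12% and 0.201%, so the shares overlapped. Chloroplast peaks were 56 and 68 in PLT3 and 58 and 60 in PLT7, against 58 and 57 in GFP, although the GFP libraries had fewer peaks in all. The IM PLT5 libraries, with 10545 and 10305 peaks in all, held 118 and 104 organelle peaks (mitochondrial and chloroplast). The IM GFP libraries held 70 and 71 organelle peaks of 10003 and 6955 in all. Whether organelle counts followed the number of peaks was not tested.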

How the results depend on the processing

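Of 234 alternative values computed, 189 were counted as unchanged. For counts this meant a value within a set factor of the main one, and for class shares a value within the main interval. For gene part shares by library and for the named common loci only the direction was compared. The 189 include the 36 checks of named common loci. Cutting each library to 28661 peaks gave 1761 PLT3-only loci, against 1020, and 2041 PLT7-only loci, against 2423, and turned the difference between libraries to -0.567 percentage points for coding exons and to 0.38 for upstream regions. It also moved upstream shares to 21.2% of PLT3-only and 19.6% of PLT7-only loci, and the coding share of PLT7-only loci to 38.9%. Leaving out a library gave 1708 to 4010 PLT3-only loci and 4109 to 5214 PLT7-only loci, with 820 to 1567 genes favouring PLT3 and 1750 to 2512 favouring PLT7; fewer calls are then needed for a class. Without PLT3 replicate 2 there were 2640 PLT3-only and 4245 PLT7-only loci. Without single libraries a site was found in 21.1% to 25.7% of PLT3-only and 39.5% to 43.4% of PLT7-only windows, and coding exons held 32.8% to 36.6% of PLT7-only summits. Windows of 100 bp each side gave 14.8% of PLT3-only and 35.7% of PLT7-only windows with a site, and 25 bp gave 48.5% of PLT7-only windows. Protein-coding genes alone put 14.5% of PLT3-only and 18.3% of PLT7-only summits upstream, and removing GFP-overlapping loci put 39.4% of PLT7-only summits in coding exons and 18.1% upstream. With SAM summits within 100 bp in place of overlap, PLT3-only loci matched SAM PLT3 in 41.7% and 23.3% and SAM PLT7 in 16.3% and 12.5%, and PLT7-only loci matched SAM PLT3 replicate 1 in 38.5%.

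The log2 scale called 4949 loci in the IM and 1912 in the SAM where ranks called 0. With replicate number as a block (replicate block), limma called 0 loci in the IM (1494 higher in PLT3 and 1351 higher in PLT7 at an unadjusted p under 0.05) and 0 in the SAM (992 and 580), and deviations of same-numbered libraries correlated at 0.0255. Limits of 10 and 30 points gave 3683 and 563 PLT3-favoured and 3603 and 480 PLT7-favoured loci. All 36 checks of the 12 named common loci on other scales kept their direction. Those loci were chosen for the widest differences in the same 4 libraries, so this outcome was nearly fixed in advance and is no separate support. With 2 libraries per bait and unknown read depth, weak peaks limit the bait-only classes: a peak just under the calling threshold counts as absent. The causes of these changes were not tested.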
